A study of Mus musculus with 9 samples.

Results

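The genes studied here are 10 genes that make, store, break down or detect the monoamines dopamine, noradrenaline, serotonin and histamine, measured in the hypothalamus of mice without Clic1, a chloride intracellular channel protein, and of WT mice. They were chosen by symbol, by a rule that uses no measured value, and all 10 were found among the 14351 genes of the deposited table. They comprise 3 synthesis enzymes (Th, Ddc and Hdc), the vesicular transporter Slc18a2, the breakdown enzymes Maoa and Maob, the dopamine receptors Drd1 and Drd2, and the serotonin receptors Htr2c and Htr1a.

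RNA sequencing of the hypothalamus gave 1 library per mouse, from 5 mice without Clic1 (KO replicates 2, 4, 6, 8 and 10) and 4 WT littermates (WT replicates 1, 3, 9 and 11), so the replicates are separate animals. All mice were male and were kept on normal chow, and no age is given in the sources used here. The KO is of the whole body, so Clic1 is missing from all tissues. The labels name the strain C57b/6J for every mouse, whereas the methods of the study place the KO line on a CD-1 background, and the treatment text of the labels names adipose tissue.

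Replicate 10 has conflicting labels, since its title and treatment say WT and its description, K10_S88, places it with the KO libraries. It was analysed as KO, and values without it, or with it as WT, are given where they change what a result shows. Clic1 itself was at 0.733 to 1.93 normalized CPM (the reads of a gene per M reads of its library) in the KO libraries and at 3.58 to 5.52 in the WT libraries, with 1.43 in replicate 10. By its Clic1 level replicate 10 thus lay with the KO libraries and below every WT library, as in its description and unlike its title. The settings that count it as WT go against that level. The groups did not overlap, and the log2 fold change was -1.80 (adjusted p = 0.0153, limma with Benjamini-Hochberg adjustment). Of 20 hypothalamic markers, 19 had a row in the table, and none of 6 adipose markers had one. The estimated depth was 5.45 to 20.8 M reads per KO library and 7.27 to 11 M reads per WT library. KO replicate 10 was the deepest library and also stood apart from the rest, with a median Spearman correlation to the other libraries of 0.974, against 0.990 to 0.993 for the other 8.

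Monoamine neurons build their transmitter from an amino acid in 1 or more enzyme steps, load it into vesicles, release it and clear it by reuptake or by oxidation. In the hypothalamus, dopamine neurons of the arcuate and periventricular nuclei restrain prolactin release, and histamine neurons of the tuberomammillary nucleus promote wakefulness. Serotonin and noradrenaline reach the hypothalamus on fibres from cell bodies in the brainstem, so the transcripts of their own synthesis genes are made elsewhere, while their receptors are made by hypothalamic neurons. Serotonin acting on Htr2c is a well-known brake on feeding.

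Tph2, Slc6a4, Dbh and Slc6a2, which mark serotonin and noradrenaline cell bodies, had no row, as was the case for all 4 locus coeruleus markers and for 5 of 6 raphe markers. The dopamine genes Th, Ddc and Slc6a3 and the histamine gene Hdc were measured in each of the 9 libraries. Mast cells also make histamine, and 1 of 6 mast cell markers (Kit, which is also made by neurons) had a row.

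None of the 10 genes passed an adjusted p of 0.05 in limma (adjusted p = 0.730 to 0.992 over the 10 genes), against 0.286% of all genes tested. At an unadjusted p under 0.05 there were 2 genes, Htr2c and Htr1a, both lower in KO, where 6.5% of all genes passed in either direction and 3.07% passed with a lower level in KO. All 10 genes had overlapping KO and WT libraries, whereas 3.41% of all genes had groups that did not overlap. The fitted difference was lower in KO for 9 genes and higher for Drd1, with a median log2 fold change of -0.10 against 0.00089 over all genes, of which 49.6% were lower. That split depended on WT replicate 11, with 6 genes lower and 4 higher without it (median -0.06). Leaving out KO replicate 10 alone kept 9 lower and 1 higher (median -0.11). With replicate 10 as WT, 8 were lower and 2 higher (median -0.05). Without both KO replicate 10 and WT replicate 11, 5 were lower and 5 higher (median -0.05). With limma-voom on estimated reads, chosen after seeing the data, 0 genes passed the adjusted threshold and 2 the unadjusted. Leaving out KO replicate 10 left 1 gene at an unadjusted p under 0.05, and counting that library as WT left 0. Fold changes here are KO minus WT on the log2(CPM + 0.1) scale, on which changes of low genes such as Drd1 appear smaller than they are.

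**Figure D1:**
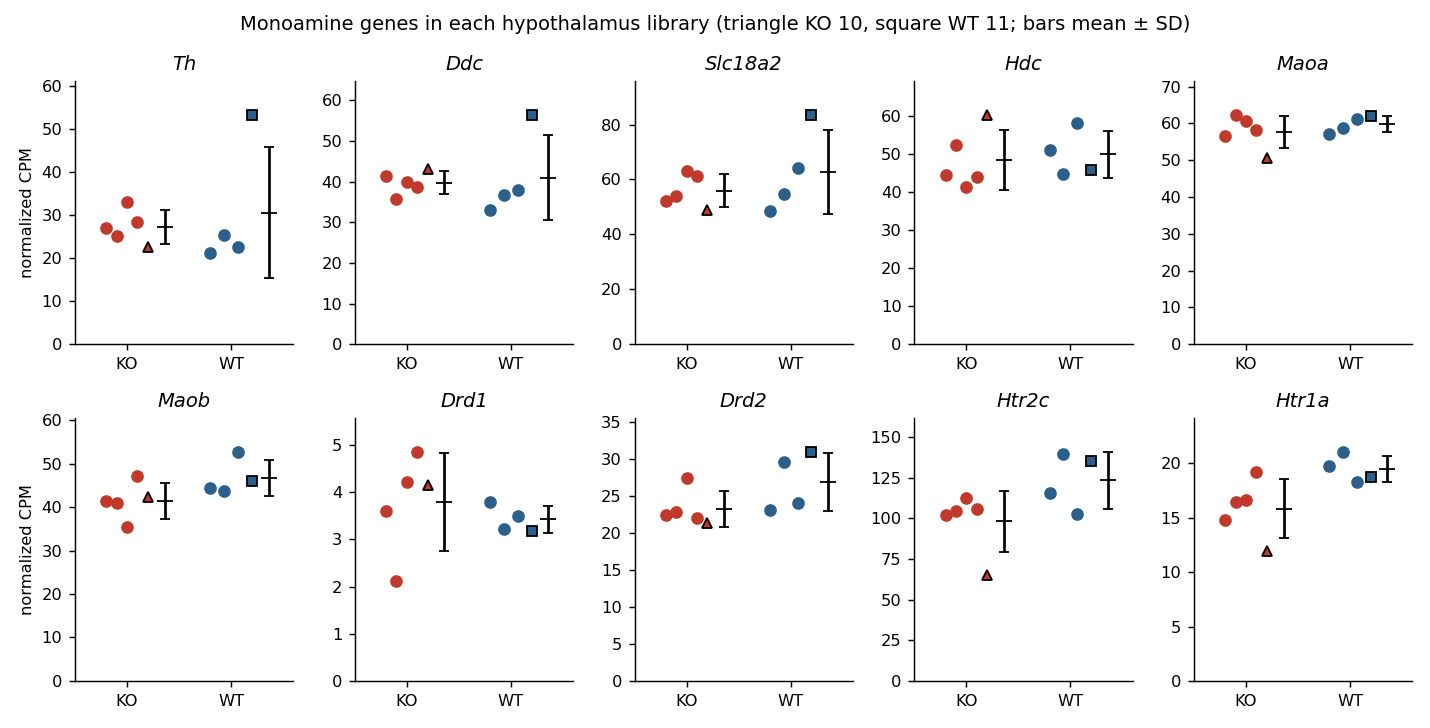
Normalized CPM of the 10 genes (vertical axes from 0) in each KO library (red) and WT library (blue), with the mean and SD of each group as a black bar. KO replicate 10 (triangle) is the lowest library for Htr2c at 65.1 CPM, WT replicate 11 (square) is the highest for Th at 53.2 CPM, and the groups overlap in all 10 panels.

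The promoter sequences of Th, Slc18a2 and Ddc are shown because these 3 genes were highest together in 1 WT library. They are RefSeq windows on GRCm38.p6, from 150 bases before the transcript start to the first 20 bases after it, on the strand of the gene, and capitals mark the cAMP response element TGACGTCA, a palindrome bound by CREB family factors.
Th promoter, chr7:142899976-142900145, minus strand: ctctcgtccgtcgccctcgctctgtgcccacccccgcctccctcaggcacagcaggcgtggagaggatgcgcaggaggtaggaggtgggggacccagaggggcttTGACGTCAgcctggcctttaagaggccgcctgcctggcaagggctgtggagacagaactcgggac
Slc18a2 promoter, chr19:59260728-59260897, plus strand: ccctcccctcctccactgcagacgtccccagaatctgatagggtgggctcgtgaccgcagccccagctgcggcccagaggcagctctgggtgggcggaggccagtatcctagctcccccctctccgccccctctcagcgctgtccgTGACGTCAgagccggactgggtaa
Ddc promoter 1, chr11:11898125-11898294, minus strand: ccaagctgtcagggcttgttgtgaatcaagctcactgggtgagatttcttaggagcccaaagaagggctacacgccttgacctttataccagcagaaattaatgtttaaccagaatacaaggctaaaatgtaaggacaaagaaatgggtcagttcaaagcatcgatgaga
Ddc promoter 2, chr11:11890389-11890558, minus strand: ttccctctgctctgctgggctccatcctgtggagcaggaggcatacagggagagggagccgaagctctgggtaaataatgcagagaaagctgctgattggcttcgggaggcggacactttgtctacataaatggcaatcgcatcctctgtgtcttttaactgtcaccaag
The element starts 45 bases before the transcript start of Th and 4 bases before that of Slc18a2. Windows of 300 bases that contain these stretches were found for 9 of the 10 genes, with no entry for Maob, and Th and Slc18a2 were the 2 genes that held the element, as 1.79% of 32851 such windows of all genes did. The TATA box letters TATAAA, searched on both strands, were in Ddc alone (13.6% of all windows), and the GC box letters GGGCGG, also on both strands, were in 7 of the 9 genes (35.7% of all windows). No pair of these motifs overlapped, and a match is a description of the letters only.

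Among the synthesis enzymes, Th (ENSMUSG00000000214, chr7:142892752-142931128, minus strand) encodes tyrosine hydroxylase, the rate-limiting enzyme of dopamine and noradrenaline synthesis. KO mice 2, 4, 6, 8 and 10, numbered as their replicates, had 26.9, 25.2, 33.2, 28.5 and 22.6 CPM. WT mice 1, 3, 9 and 11 had 21.2, 25.4, 22.5 and 53.2 CPM. WT replicate 11 was 2.31-fold the mean of the other WT libraries, and the 5 KO libraries lay around or above those 3. The KO mean was 27.3 ± 3.95 CPM (SD, n = 5) against a WT mean of 30.6 ± 15.2 CPM (SD, n = 4), a log2 fold change of -0.07 (SE 0.23, 95% interval -0.57 to 0.44, adjusted p = 0.970, limma). The two-sided exact permutation test gave p = 0.857. The sign turned without WT replicate 11, where the log2 fold change was 0.24 (adjusted p = 0.963, limma) and the exact permutation p was 0.143. Without both that library and KO replicate 10, a setting chosen after seeing the data, it was 0.30 (95% interval 0.07 to 0.53, unadjusted p = 0.0148, adjusted p = 0.350, limma).

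Ddc (ENSMUSG00000020182, chr11:11814101-11898144, minus strand) encodes aromatic L-amino acid decarboxylase, which forms dopamine from L-DOPA and serotonin from 5-hydroxytryptophan. KO mice 2, 4, 6, 8 and 10 had 41.5, 35.9, 39.9, 38.6 and 43.1 CPM, and WT mice 1, 3, 9 and 11 had 33.1, 36.7, 37.9 and 56.3 CPM. WT replicate 11 was again the highest, at 1.57-fold the mean of the other WT libraries, and the remaining libraries overlapped. The means of 39.8 ± 2.76 in KO (SD, n = 5) and 41.0 ± 10.4 in WT (SD, n = 4) gave a log2 fold change of -0.01 (SE 0.13, 95% interval -0.31 to 0.28, adjusted p = 0.992, limma; exact permutation p = 0.905). Without WT replicate 11 the value was 0.15.

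Hdc (ENSMUSG00000027360, chr2:126593667-126619299, minus strand) encodes histidine decarboxylase, which makes histamine in 1 step. Values of the gene were 44.4, 52.5, 41.4, 43.9 and 60.2 CPM for KO mice 2, 4, 6, 8 and 10 and 51.1, 44.8, 58.2 and 45.9 CPM for WT mice 1, 3, 9 and 11. The highest KO library was replicate 10, the highest WT library was replicate 9, and the groups covered nearly the same range. The log2 fold change was -0.05 (SE 0.12, 95% interval -0.31 to 0.21, adjusted p = 0.953, limma; exact permutation p = 0.714). WT replicate 11, which was the highest for Th and Ddc, was in the middle for Hdc.

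Slc18a2 (ENSMUSG00000025094, chr19:59260896-59296012, plus strand) encodes VMAT2, the transporter that loads dopamine, noradrenaline, serotonin and histamine into vesicles. KO mice 2, 4, 6, 8 and 10 had 52.2, 54.0, 63.2, 61.3 and 49.0 CPM, and WT mice 1, 3, 9 and 11 had 48.7, 54.7, 64.2 and 83.3 CPM. WT replicate 11 was the highest library, at 1.49-fold the mean of the other WT libraries, and those 3 spanned the KO values. The log2 fold change was -0.14 (SE 0.14, 95% interval -0.45 to 0.16, adjusted p = 0.880, limma; exact permutation p = 0.429), and it was 0.0048 without WT replicate 11. An antisense gene, Gm29261, shares 111 exon bases with Slc18a2 on the opposite strand, and whether the counting used strand is not given in the sources used here.

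The library with the high Th, WT replicate 11, was also the highest for Slc6a3 and Chrna6, but not for each dopamine neuron marker. Slc6a3, the plasma membrane dopamine transporter, was at 77.1 CPM in that library and at 3.44, 12.1 and 6.90 CPM in WT replicates 1, 3 and 9. In the KO libraries it was at 8.24, 5.40, 22.7, 16.0 and 11.3 CPM for replicates 2, 4, 6, 8 and 10. Slc6a3 thus varied 22.5-fold between the lowest and the highest library, and WT replicate 11 was 10.3-fold the mean of the other WT libraries. Its log2 fold change was -0.12 (adjusted p = 0.985, limma), and it turned to 0.76 without WT replicate 11 (unadjusted p = 0.133, limma). Chrna6, a nicotinic receptor subunit of midbrain dopamine neurons that was chosen from its marker list after its values were seen, was at 9.92 CPM in WT replicate 11, 4.15-fold the mean of the other WT libraries. Of the remaining markers of that list, Calb1 was at 189.7 CPM in WT replicate 11, the lowest of the WT libraries (197.9 to 245.2 CPM in the others). Sncg was at 28.9 CPM there and at 29.4 CPM in WT replicate 9. Aldh1a1 was at 54.3 CPM there, at 31.7 to 39.7 CPM in the other WT libraries and at 77.5 CPM in KO replicate 10. In bulk tissue, fewer or more cells of a type and less or more RNA per cell cannot be told apart.

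Over the 9 libraries, Th and Slc6a3 had a Pearson r of 0.92 and a Spearman rho of 0.88, and without WT replicate 11 the values over 8 libraries were 0.79 and 0.83. Th and Chrna6 gave r = 0.85 over 9 libraries and 0.83 over 8. Th and Ddc gave r = 0.84 over 9 and 0.37 over 8, and Th and Slc18a2 gave 0.86 and 0.56. The relation of Th to Ddc thus rested largely on 1 library, whereas that of Th to Slc6a3 was also present among the others. The points share a library and its depth, and these correlations are descriptions. Of 8 markers of ventral midbrain dopamine neurons, 5 had a row, while the defining regulators Pitx3, Foxa2 and En1 had none. The summed level of the 5 was 359.9 CPM in WT replicate 11, 276.2 to 324.4 CPM in the other WT libraries and 252.0 to 374.0 CPM in the KO libraries. Without Slc6a3 the other 4 summed to 282.8 CPM in WT replicate 11, within the 264.1 to 317.5 CPM of the other WT libraries and the 243.8 to 362.7 CPM of the KO libraries. Calb1 made up 189.7 CPM of that 282.8 CPM, so the sum says little about Chrna6 or Aldh1a1. The part of tissue dissection in these values was not tested.

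**Figure D2:**
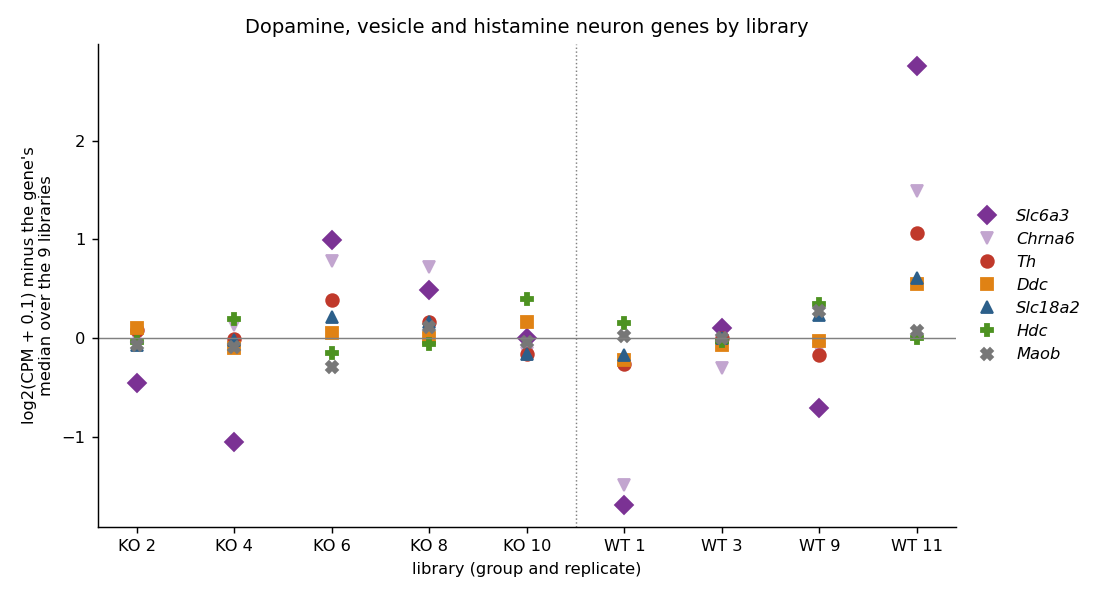
Difference of log2(CPM + 0.1) from the median of the same gene over the 9 libraries (vertical axis) for 7 genes in each library (horizontal axis, KO left and WT right of the dotted line). In WT replicate 11 the dopamine genes Slc6a3, Chrna6, Th, Ddc and Slc18a2 are all above their medians, while Hdc and Maob are close to theirs.

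Maoa and Maob encode the mitochondrial monoamine oxidases and lie next to each other on the X chromosome, on opposite strands (ENSMUSG00000025037, chrX:16619698-16687818, plus, and ENSMUSG00000040147, chrX:16709282-16817366, minus). Maoa prefers serotonin and noradrenaline, whereas Maob is the main oxidase of astrocytes, histamine neurons and serotonin neurons. Values of Maoa were 56.7, 62.2, 60.6, 58.3 and 50.7 CPM for KO mice 2, 4, 6, 8 and 10 and 57.2, 58.6, 61.3 and 62.1 CPM for WT mice 1, 3, 9 and 11. Its values were the tightest among the 10 genes by the 95% interval of the log2 fold change, which was -0.22 to 0.11 around -0.06 (SE 0.07, adjusted p = 0.910, limma; exact permutation p = 0.429). KO replicate 10 was the lowest library.

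Values of Maob were 41.5, 41.0, 35.5, 47.2 and 42.3 CPM for KO mice 2, 4, 6, 8 and 10 and 44.3, 43.7, 52.7 and 46.0 CPM for WT mice 1, 3, 9 and 11. Of the KO libraries, only replicate 8 lay within the WT range, and the other 4 were below it. The means were 41.5 ± 4.16 (SD, n = 5) and 46.7 ± 4.12 (SD, n = 4), with a log2 fold change of -0.17 (SE 0.09, 95% interval -0.37 to 0.03, unadjusted p = 0.0908, adjusted p = 0.803, limma; exact permutation p = 0.0952). The 7 astrocyte markers had a summed level of 4640 to 4973 CPM over the KO libraries and 4360 to 4851 CPM over the WT libraries, and the 5 tuberomammillary markers, which include Maob, summed to 153.6 to 191.2 CPM and 160.8 to 201.7 CPM. Slc1a2, with a log2 fold change of 0.11, made up most of the astrocyte sum (KO mean 2950, WT mean 2726). That sum thus says little about the other astrocyte markers. Of all 7, 3 had a higher and 4 a lower fitted level in KO. The part of astrocytes or tuberomammillary neurons in the Maob difference was not tested.

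Of the receptors, Drd1 (ENSMUSG00000021478, chr13:54051183-54055705, minus strand) is the Gs-coupled dopamine receptor and was the lowest of the 10 genes. Values of the gene were 3.61, 2.11, 4.21, 4.85 and 4.16 CPM for KO mice 2, 4, 6, 8 and 10 and 3.80, 3.21, 3.50 and 3.17 CPM for WT mice 1, 3, 9 and 11. The KO libraries spanned the whole WT range. The log2 fold change was 0.10 (SE 0.23, 95% interval -0.41 to 0.60, adjusted p = 0.953, limma; exact permutation p = 0.698). The lowest library held an estimated 16.0 reads of Drd1, for which counting alone gives a coefficient of variation of 25.0%, so a difference of that size between single libraries lies within counting error.

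Drd2 (ENSMUSG00000032259, chr9:49340627-49408177, plus strand) is the Gi-coupled dopamine receptor and also the autoreceptor of dopamine neurons. KO mice 2, 4, 6, 8 and 10 had 22.4, 22.9, 27.5, 22.1 and 21.3 CPM, and WT mice 1, 3, 9 and 11 had 23.2, 29.6, 24.1 and 31.0 CPM. KO replicate 6 lay within the WT range and the other 4 KO libraries lay just below it. The log2 fold change was -0.21 (SE 0.11, 95% interval -0.46 to 0.04, unadjusted p = 0.0935, adjusted p = 0.807, limma; exact permutation p = 0.111), and it was -0.11 with replicate 10 as WT. Drd1 and Drd2 are both abundant in the striatum, and 13 of 14 striatal markers, which include these 2 genes, had a row. Their summed level was 342.6 to 354.9 CPM over the KO libraries and 344.9 to 370.6 CPM over the WT libraries. Pde10a, Penk, Rgs9 and Tac1 made up most of that sum. It thus says little about low markers such as Adora2a (means of 1.04 CPM in KO and 0.93 CPM in WT).

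Htr2c (ENSMUSG00000041380, chrX:146962513-147197277, plus strand) encodes a Gq-coupled serotonin receptor found on hypothalamic Pomc neurons among others. It had the highest CPM of the 10 genes, with 102.3, 104.7, 112.6, 106.0 and 65.1 CPM for KO mice 2, 4, 6, 8 and 10 and 115.3, 139.8, 102.7 and 135.5 CPM for WT mice 1, 3, 9 and 11. All 5 KO libraries were below the WT median, KO replicate 10 was far below the other 4 at 0.612-fold their mean, and WT replicate 9 lay among the KO values. The means were 98.1 ± 18.9 (SD, n = 5) and 123.3 ± 17.4 (SD, n = 4), a log2 fold change of -0.34 (SE 0.15, 95% interval -0.67 to -0.01, unadjusted p = 0.0428, adjusted p = 0.760, limma; exact permutation p = 0.0794). Several small RNA genes lie in its introns and share none of its exon bases.

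The size of the Htr2c difference depended on KO replicate 10. Without it the log2 fold change was -0.20 (SE 0.08, unadjusted p = 0.0254, adjusted p = 0.375, limma; exact permutation p = 0.143), and with that library as WT it was -0.02 (adjusted p = 0.982, limma). Leaving out each library in turn gave -0.43 to -0.20. KO replicate 10 also stood apart in summed levels. The serotonin receptor genes, Htr2c included, summed to 191.7 CPM in it, with 255.0 to 269.3 CPM in the remaining KO libraries and 258.0 to 309.5 CPM in WT. The 7 thalamus markers with a row summed to 540.2 CPM, against 600.8 to 651.1 CPM and 638.8 to 676.9 CPM. Slc17a6 made up 341.9 CPM of that 540.2 CPM. The 3 choroid plexus markers with a row summed to 225.6 CPM, against 173.2 to 204.2 CPM and 172.9 to 184.6 CPM. These 3 markers did not move together. Enpp2 made up 187.3 CPM of the sum in KO replicate 10, whereas Kl was at 10.4 CPM, its lowest value of the 9 libraries. Clic6 was at 27.85 CPM, below the 29.24 CPM of KO replicate 8. Choroid plexus epithelium itself makes much Htr2c, and its defining markers Ttr and Folr1 had no row. The part of tissue composition in the Htr2c value was not tested.

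Htr1a (ENSMUSG00000021721, chr13:105443639-105448122, plus strand), a gene of 1 exon, encodes a Gi-coupled serotonin receptor. Values of the gene were 14.8, 16.5, 16.7, 19.2 and 11.9 CPM for KO mice 2, 4, 6, 8 and 10 and 19.7, 21.03, 18.3 and 18.7 CPM for WT mice 1, 3, 9 and 11. Only KO replicate 8 reached the WT range, and KO replicate 10 was again the lowest library. The means were 15.8 ± 2.69 (SD, n = 5) and 19.5 ± 1.21 (SD, n = 4), a log2 fold change of -0.31 (SE 0.13, 95% interval -0.60 to -0.03, unadjusted p = 0.0343, adjusted p = 0.730, limma; exact permutation p = 0.0476, where 0.0159 is the smallest this design allows). Without KO replicate 10 it was -0.21 (unadjusted p = 0.0511, adjusted p = 0.480, limma; exact permutation p = 0.0857), and with that library as WT it was -0.07 (adjusted p = 0.921, limma). Htr1a was the only one of the 10 genes with an exact permutation p under 0.05, and no adjustment was made to that value.

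**Figure D3:**
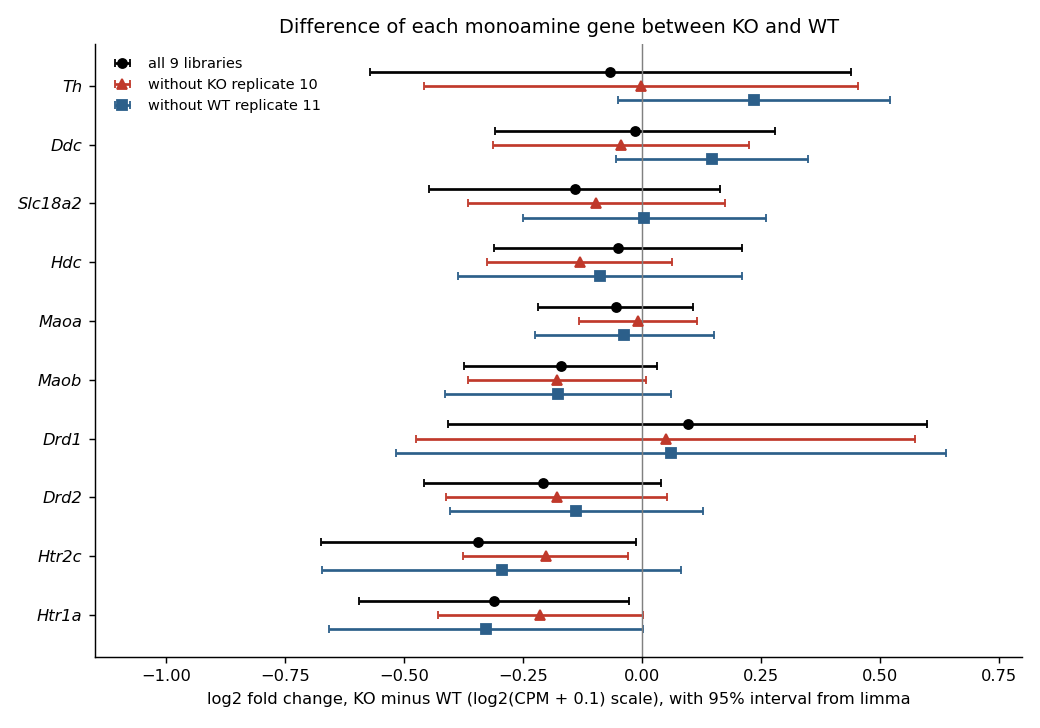
Log2 fold change of each gene, KO minus WT on the log2(CPM + 0.1) scale (horizontal axis), with its 95% interval from limma, for all 9 libraries (black circles), without KO replicate 10 (red triangles) and without WT replicate 11 (blue squares). With all libraries the intervals of Htr2c (-0.67 to -0.01) and Htr1a (-0.60 to -0.03) lie below 0, and Th moves from -0.07 to 0.24 when WT replicate 11 is left out.

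Ratios of paired genes within a library, which cancel the scaling of the library, were compared for 4 pairs. The log2 ratio of Maoa to Maob had a KO mean of 0.48 ± 0.21 (SD, n = 5) and a WT mean of 0.36 ± 0.10 (SD, n = 4) (difference 0.12, exact permutation p = 0.365, adjusted over the 4 pairs p = 0.730), and the difference was 0.04 without KO replicate 6, 0.07 without WT replicate 9 and 0.19 with replicate 10 as WT. That of Drd1 to Drd2 was higher by 0.30 in KO (exact permutation p = 0.317, adjusted p = 0.730), by 0.11 with replicate 10 as WT, by 0.19 without KO replicate 8, by 0.20 without WT replicate 11 and by 0.49 without KO replicate 4. The ratio of Th to Ddc differed by -0.05 (exact permutation p = 0.810, adjusted p = 0.810) and that of Hdc to Slc18a2 by 0.09 (exact permutation p = 0.730, adjusted p = 0.810), and both changed sign without KO replicate 10, without WT replicate 11 and with replicate 10 as WT. Each ratio overlapped between the groups.

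Divided by exon length, the WT means ran from Maob at 16.7 CPM per kb through Maoa (14.4), Htr2c (13.2), Th (12.9), Slc18a2 (12), Drd2 (10.6), Ddc (9.19), Hdc (7.82) and Htr1a (4.34) to Drd1 at 0.943. Neighbours in this order whose WT libraries did not overlap were Maob and Maoa, Hdc and Htr1a, and Htr1a and Drd1, and the other neighbours did not differ beyond their spread. In KO the order was the same, except that Th ranked 3, Slc18a2 ranked 4 and Htr2c ranked 5. Maob (12.74 to 16.93 CPM per kb) and Maoa (12.15 to 14.93) did overlap in the KO libraries.

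**Figure D4:**
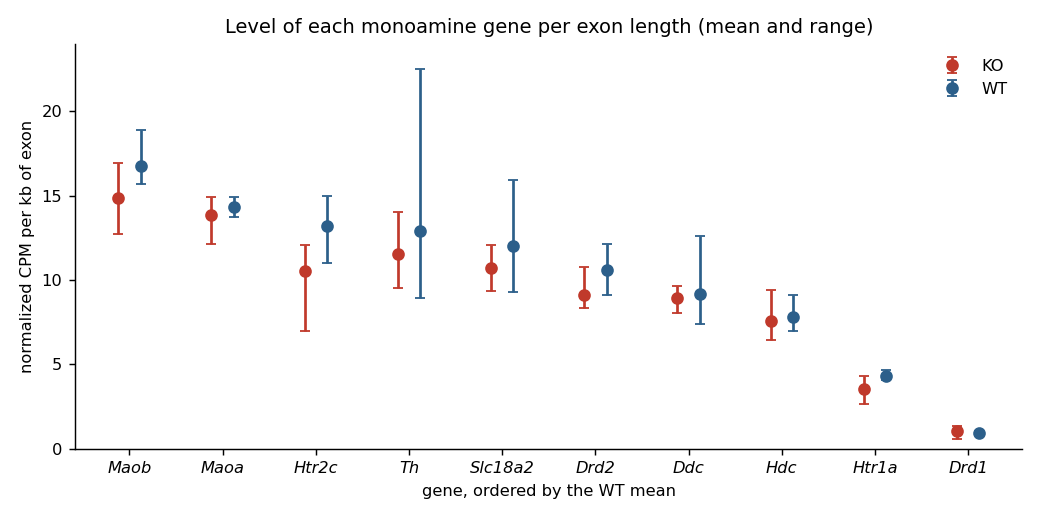
Normalized CPM per kb of exon (vertical axis, from 0) of the 10 genes, as the mean (point) and the range over libraries (bar) in KO (red) and WT (blue), ordered by the WT mean. Maob is the highest at 16.7 CPM per kb in WT and Drd1 the lowest at 0.943, and the wide WT bar of Th ends at 22.5 in replicate 11.

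The other genes of the pathway were taken from 9 lists by role. Of 86 listed genes, 64 had a row, and none passed an adjusted p of 0.05 (smallest adjusted p = 0.703, limma). At an unadjusted p under 0.05 there were 1 higher and 0 lower, or 1.56% of the 64, and 30 were higher and 34 lower with a median log2 fold change of -0.03. Without KO replicate 10, 34 were higher and 30 lower (median 0.01), and an unadjusted p under 0.05 was reached by 3 higher genes (Adcy5 and Dlx1 among them) and 2 lower genes (Ppp1r1b and Rgs4), again without a call after adjustment. The 1 gene with all libraries was Adcy5, the adenylyl cyclase downstream of Drd1 and Drd2 in striatal neurons, which had a KO mean of 276.1 ± 16.5 CPM (SD, n = 5) against a WT mean of 246.8 ± 12.9 CPM (SD, n = 4) (log2 fold change 0.16, unadjusted p = 0.0264, adjusted p = 0.703, limma).

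Among 5 further synthesis genes with a row, which make or recycle the cofactor tetrahydrobiopterin, 3 were higher and 2 lower, without a call, and without KO replicate 10 this became 1 higher and 4 lower. Gch1, which starts the synthesis of that cofactor, was at 3.54 CPM in KO and 4.43 CPM in WT, and Pts, the next enzyme, was at 20.8 and 18.7 CPM. Of the breakdown genes beside Maoa and Maob, 4 were higher and 2 lower, or 3 and 3 without KO replicate 10. Hnmt, which methylates histamine, was at 17.5 CPM in KO and 19.1 CPM in WT. The transporters Slc22a3 and Slc29a4, which take up monoamines with low affinity, were at 3.74 and 31.1 CPM in KO and 3.13 and 32.6 CPM in WT.

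Of 9 further serotonin receptor genes, 3 were higher and 6 lower in KO, with a median log2 fold change of -0.08 and none at an unadjusted p under 0.05. Without KO replicate 10 these were 4 higher and 5 lower, with a median of -0.03. Htr2a, like Htr2c a Gq-coupled receptor, had a log2 fold change of -0.15 (unadjusted p = 0.142, adjusted p = 0.831, limma). Htr1b and Htr1d, Gi-coupled like Htr1a, had log2 fold changes of -0.08 and -0.37, and Htr1f of 0.03, with adjusted p = 0.930, 0.863 and 0.995 in limma. Without KO replicate 10 these 3 values were 0.04, -0.12 and 0.24, and that of Htr2a was -0.09. Drd3 and Drd5 were near the lower end of the table, at 1.55 and 2.83 CPM in KO and 1.91 and 2.84 CPM in WT. Among the histamine receptors, Hrh3, the autoreceptor of histamine neurons, had a KO mean of 62.8 ± 15.4 CPM (SD, n = 5) against a WT mean of 66.3 ± 4.20 CPM (SD, n = 4). KO replicate 10 was at 36.6 CPM and the other KO libraries at 64.1 to 77.3 CPM, and the log2 fold change turned from -0.12 to 0.06 without it. The 6 adrenergic receptor genes with a row had log2 fold changes between -0.19 and 0.27, of which 2 were higher and 4 lower, and without KO replicate 10 this became 4 higher and 2 lower.

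The 12 measured regulators of dopamine neurons and their development were split into 5 higher and 7 lower genes, with a median log2 fold change of -0.10. Without KO replicate 10 the split was 6 and 6 and the median turned to 0.02. Nr4a2, which drives Th in midbrain neurons, had a KO mean of 22.8 ± 4.46 CPM (SD, n = 5) against a WT mean of 26.6 ± 6.37 CPM (SD, n = 4). Dlx1, a regulator of GABA neurons that include arcuate dopamine neurons, had a KO mean of 29.3 ± 5.50 CPM (SD, n = 5) against a WT mean of 26.0 ± 1.76 CPM (SD, n = 4). With all 9 libraries neither reached an unadjusted p under 0.05. Without KO replicate 10 the log2 fold change of Dlx1 went from 0.15 to 0.26 (unadjusted p = 0.0123, adjusted p = 0.294, limma), and that of Nr4a2 from -0.21 to -0.14. WT replicate 11 held the highest Nr4a2 of the 9 libraries, at 34.7 CPM, and without it the log2 fold change of Nr4a2 was -0.07. Lmx1b and Onecut3 were also highest in that library, at 22.0 and 10.5 CPM. Six3 and Six6 were at 29.1 and 12.7 CPM there, their lowest WT values. Onecut3 was at 4.35 to 6.85 CPM in the other libraries. Its log2 fold change went from -0.24 to -0.0039 without WT replicate 11. The 18 signalling partners of the receptors had log2 fold changes between -0.22 and 0.16.

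**Figure D5:**
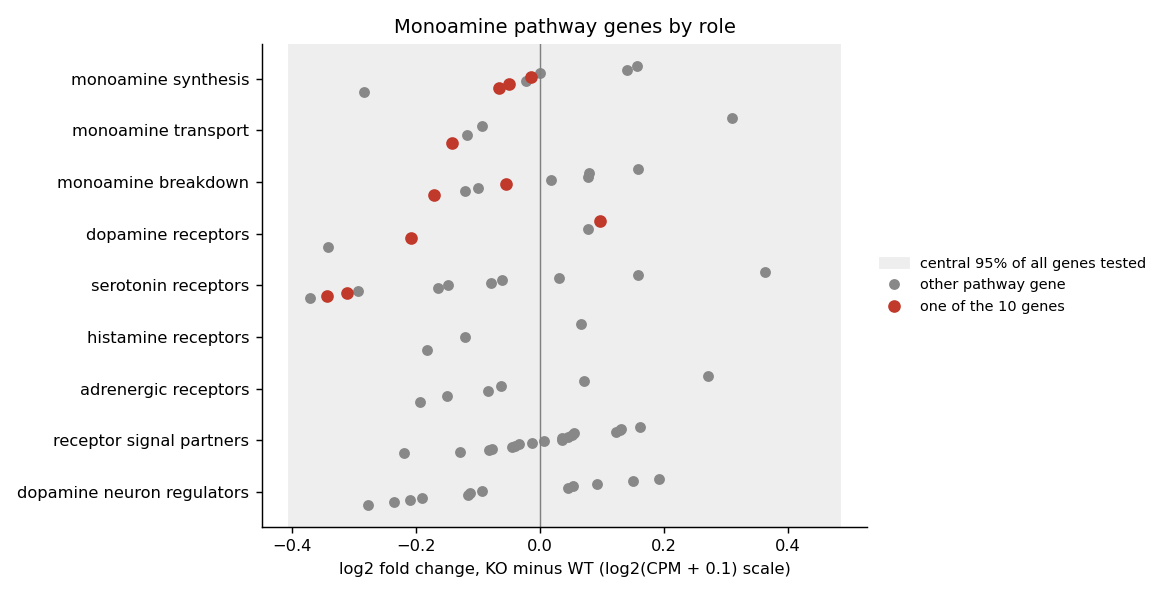
Log2 fold change, KO minus WT on the log2(CPM + 0.1) scale (horizontal axis), of the 10 genes (red) and the 64 other pathway genes with a row (grey), in rows by role, with the central 95% of all genes tested shaded (-0.40 to 0.48). Each pathway gene lies inside the shaded range, and Htr2c and Htr1a lie at -0.34 and -0.31.

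The genes whose level moved most like that of each of the 10 genes, after centring each group on its mean, were sought over the 9 libraries among the 12072 genes that averaged 5 CPM or more. The closest to Th was Ero1lb (r = 0.95, and 0.66 without WT replicate 11), followed by Kdsr (0.92 and 0.85). The closest to Ddc were Ret (0.94 and 0.87 without WT replicate 11), the receptor tyrosine kinase for GDNF family ligands, and Rxfp3 (0.92 and 0.57). Slc18a2 was closest to Sirt5 and Cdk10 (both 0.94), Hdc to Epdr1 (0.97) and Arf5 (0.96), and Drd2 to Col4a3bp (0.94) and Dleu7 (0.93). Maob was closest to Rspo3 (0.97) and Col1a2 (0.96), a collagen of fibroblasts, and Maoa to Dgkh (0.97) and a gene without a unique symbol, ENSMUSG00000078898 (0.96). Drd1 was closest to Lcmt2 and Zfp931 (both 0.93). Htr2c was closest to Pura and Auts2 (both 0.99, and both 0.96 without KO replicate 10), and Htr1a to Coq10a (0.99) and Kctd12 (0.97). Each value is the highest of a search over 12072 genes with 9 points that share their libraries and depth, so these correlations are descriptions.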

How the data were processed

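Hypothalamic RNA (TruSeq libraries, NovaSeq) was trimmed with Trimmomatic 0.38 and checked with FastQC 0.11.8, aligned to GRCm38.p6 with STAR 2.5.1a and counted per gene with RSEM 1.3.0, with these versions taken from the submitters' processing notes. The authors removed low genes, applied TMM in edgeR and deposited the signal used here, normalized CPM per gene. The depth per library was estimated from the steps between low CPM values; 81.3% to 86.6% of values up to 2.5 CPM lay within 0.03 reads of a whole number, so whole reads were not recovered. Of the deposited tables, 1 column matched no sample and was not used, and the authors' comparison columns (log2 fold changes, moderated t and p-values) were not used.

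Here log2(CPM + 0.1) was fitted with limma 3.58.1 (R 4.3.3, lmFit, eBayes with a trend, condition only) with Benjamini-Hochberg adjustment over 14351 genes, and the fit was tested on simulated data. The two-sided exact permutation tests used mean log2(CPM + 0.1) and scipy 1.17.1. Gene positions came from GENCODE mouse release 21 on GRCm38, and exon lengths are the merged exons of each gene. The genes, lists and tests were chosen with earlier results of these data known. Genes named were the 10 genes, the pathway genes with an unadjusted p under 0.05 plus up to 4 examples per list in their written order, the 2 genes most like each of the 10, and Clic1. Chrna6, Calb1, Sncg, Aldh1a1, Ppp1r1b, Rgs4, Enpp2, Kl, Clic6, Slc1a2, Lmx1b and Six3 were named after their values were seen. The same holds for Slc17a6, Pde10a, Penk, Rgs9, Tac1, Adora2a, Onecut3 and Six6. Alternatives changed the pseudocount, low-value filter, scaling, variance model, sample weights, threshold, grouping of replicate 10 and the libraries included.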

Additional observations from a re-analysis of the deposited data

Results flagged for a closer look

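Within the 22 groups of 4 or 5 libraries tested by gene (the 10 genes and Slc6a3, in KO and WT), 4 held 1 library far from the others by Dixon's criterion, where chance gives about 1.1. The value of 1.1 takes the groups as independent. However, Th and Slc6a3 were flagged in the same library, and Slc6a3 is not one of the 10 genes. Th stood at 53.2 CPM in WT replicate 11, against 21.2 to 25.4 CPM in the other WT libraries. Slc6a3 stood at 77.1 CPM in the same library, against 3.44 to 12.1 CPM. Htr2c stood at 65.1 CPM in KO replicate 10, with 102.3 to 112.6 CPM in the remaining KO libraries. Drd2 stood at 27.5 CPM in KO replicate 6, against 21.3 to 22.9 CPM.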

How the results depend on the processing

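Over 22 alternatives, 0 of the 10 genes and 0 of the other pathway genes passed the adjusted p threshold (limma, smallest adjusted p of the 10 genes 0.248). Over all genes, 41 passed in the fit as reported, against 135 with sample weights, 27 among genes averaging 5 CPM or more, 5 with replicate 10 as WT, 77 without both KO replicate 10 and WT replicate 11 (chosen after seeing the data) and 18 to 87 when leaving out each library, the lowest without WT replicate 1 and the highest without KO replicate 10. The cause was not tested. Of 257 comparisons of single values with an alternative, 233 kept their direction, 24 changed sign and 0 crossed the threshold. The log2 fold change of Th became 0.0121 with sample weights, 0.0626 with replicate 10 as WT and 0.30 without both libraries, and ranged from -0.21 to 0.24 when leaving out each library. Ddc became 0.12 without both libraries and 0.0195 with limma-voom on estimated reads (also chosen after seeing the data), with a leave-one-out range of -0.11 to 0.15. Slc18a2 became 0.0507 without both libraries (leave-one-out -0.25 to 0.0048), and Hdc ranged from -0.13 to 0.026 when leaving out each library. Maoa became 0.0013 with sample weights, 0.0387 with replicate 10 as WT and 0.0092 without both libraries. Drd1 became -0.0195 with sample weights and -0.0051 with replicate 10 as WT (leave-one-out -0.0041 to 0.29), and it was not tested at 5 CPM or more, which it did not reach. The log2 ratio of Th to Ddc became 0.13 and that of Hdc to Slc18a2 -0.16 with replicate 10 as WT, with leave-one-out ranges of -0.13 to 0.0877 and -0.0931 to 0.22, while Maoa to Maob ranged from 0.04 to 0.17 and Drd1 to Drd2 from 0.19 to 0.49 when leaving out each library. Maob, Drd2, Htr2c and Htr1a were lower in KO under every alternative run. No paired analysis was run, because no litter or pairing of the KO and WT mice is given in the sources used here. Depth limits Drd1 most, and 5 against 4 libraries allow an exact permutation p of 0.0159 at the smallest.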
